A study of Mus musculus with 9 samples.

Results

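The 9 genes described here encode receptors through which growth factors act on blood-forming cells: Il7r, Csf1r, Csf3r, Csf2ra, Csf2rb, Csf2rb2, Kit, Flt3 and Epor. They were taken by gene symbol, and all 9 are among the 31053 genes of the deposited matrix. Single cells were taken from the femur marrow of 9 female mice aged 9 to 10 weeks, 3 each of the inbred strains NZB and NZW and of NZBWF1, the offspring of an NZW mother and an NZB father, which develops a lupus-like disease. Red cells had been lysed, and the labels name no transgene or treatment.

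The receptors fall into groups by the way they signal. Kit (receptor of stem cell factor), Flt3 and Csf1r (receptor of macrophage colony-stimulating factor and of interleukin 34) are receptor tyrosine kinases. Il7r, Csf3r, Epor and the GM-CSF receptor are cytokine receptors without a kinase of their own and act through Janus kinases and STAT proteins. Csf2ra is the chain that binds GM-CSF, Csf2rb is the beta chain shared with the receptors of interleukin 3 and interleukin 5, and Csf2rb2 is a mouse-specific beta chain that serves interleukin 3. In marrow, Kit and Flt3 are known from stem and progenitor cells, Epor from erythroid precursors, Csf3r from neutrophils, Csf1r from monocytes and macrophages, and Il7r from developing lymphocytes.

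On the mouse assembly GRCm38, which equals the mm10 build named in the submitters' notes, Il7r lay on the minus strand of chromosome 15 at chr15:9505788-9530176. The pair Csf2rb2 (minus strand, chr15:78282507-78305721) and Csf2rb (plus strand, chr15:78325752-78353847) lay head to head on the same chromosome, 20.03 kb apart. Csf3r lay on the plus strand at chr4:126024550-126044440, Kit on the plus strand at chr5:75574916-75656722, Flt3 on the minus strand at chr5:147330741-147400489, Epor on the minus strand at chr9:21958897-21963506 and Csf2ra on the minus strand at chr19:61223957-61228429. Csf2rb and Csf2rb2 are near-identical in parts: 18.4% of all 50-base words of the longest Csf2rb transcript also occurred in Csf2rb2 transcripts. In the last 500 bases, which this 3′ chemistry mostly reads, 0 of 451 such words were shared in either direction, and of 30-base words 7 of 471 were.

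RefSeq promoter windows on GRCm38.p6 were searched for 7 of the 9 receptors. Stretches of 150 bases that end outside the annotated gene are shown for Epor, the receptor with the narrowest range of cell classes, for Flt3, a progenitor receptor, and for Csf2ra, a receptor of most myeloid classes, each 5′ to 3′ on the strand of the gene.
Epor, chr9:21963577-21963726, minus strand: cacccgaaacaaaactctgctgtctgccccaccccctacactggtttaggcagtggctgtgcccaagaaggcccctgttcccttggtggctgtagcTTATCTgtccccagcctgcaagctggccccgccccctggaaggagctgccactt
Flt3, chr5:147400490-147400639, minus strand: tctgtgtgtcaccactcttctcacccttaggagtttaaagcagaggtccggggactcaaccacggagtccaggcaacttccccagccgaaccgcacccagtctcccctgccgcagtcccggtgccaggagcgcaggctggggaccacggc
Csf2ra, chr19:61228430-61228579, minus strand: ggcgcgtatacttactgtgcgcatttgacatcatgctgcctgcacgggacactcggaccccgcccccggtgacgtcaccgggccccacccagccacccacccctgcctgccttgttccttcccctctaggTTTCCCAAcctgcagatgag
Capitals mark matches inside the 150 bases shown, on either strand, to 3 short motifs searched in the 250 bases before each start. The GATA motif, spelled AGATAA, was found before the start of Epor alone among the 7 receptors, and 9.99% of all 32851 promoter windows held it. The PU.1 core, spelled GAGGAA, was found before the starts of Csf3r, Kit, Csf2rb2 and Csf2ra and in 23.3% of all windows, and a loose C/EBP motif, TTNNGNAA, before those of Il7r and Csf2ra and in 36.8%. The 2 PU.1 matches of Csf2ra lie 14 and 8 bases before the start used for the search, which is nearer to the gene than the end of the stretch shown. The first is cut by that end and the second lies beyond it. These are matches of letters in a window and not measured binding sites.

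Each mouse gave 2359 to 5217 cells after quality control, 36525 in all. These held 7678854 to 16373447 unique molecular identifiers per mouse (UMIs, each standing for 1 captured RNA molecule). The median was 2351 to 2451 UMIs per cell in NZB mice and 2107 to 2266 in NZW and NZBWF1 mice. The median mitochondrial share was 2.96% to 3.996% in NZB mice and 4.23% to 4.75% in NZW and NZBWF1 mice. The paper reports a lower average cell viability for NZB than for the other strains. It also states that the quality of cells did not differ between batches or strains. The part of these UMI, mitochondrial and viability differences in the strain comparisons was not tested beyond the alternative limits on UMIs and mitochondrial share. Cells were placed in 23 classes by marker genes that include none of the receptors, and 27353 cells (74.9%) met the markers of 1 class. Of the 67883 barcode sequences, 557 occurred in more than 1 library. Levels are given in CPM, the UMIs of a gene per 1000000 UMIs of the same class, summed per mouse. A class counted for a mouse with at least 10 of its cells, which left 22 classes that at least 3 mice held and none for conventional dendritic cells. A sum over cells cannot tell fewer cells with a receptor from less RNA per cell.

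Each receptor had its own set of classes. Epor was the narrowest, with means over 20 CPM in 3 of 22 classes and under 5 CPM in 16. The third of these, the megakaryocyte-like class, had 174 CPM in NZB replicate 2 and 0 and 35.0 CPM in 2 NZBWF1 mice, and its mean would be under 20 CPM without the NZB mouse. Csf3r, Csf2ra and Csf2rb were the broadest, each over 20 CPM in 13 classes. Csf2rb2 passed 20 CPM in 4 classes, Csf1r and Flt3 in 5, and Il7r and Kit in 7. Values of different receptors are set side by side here only by class and not by size.

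**Figure D1:**
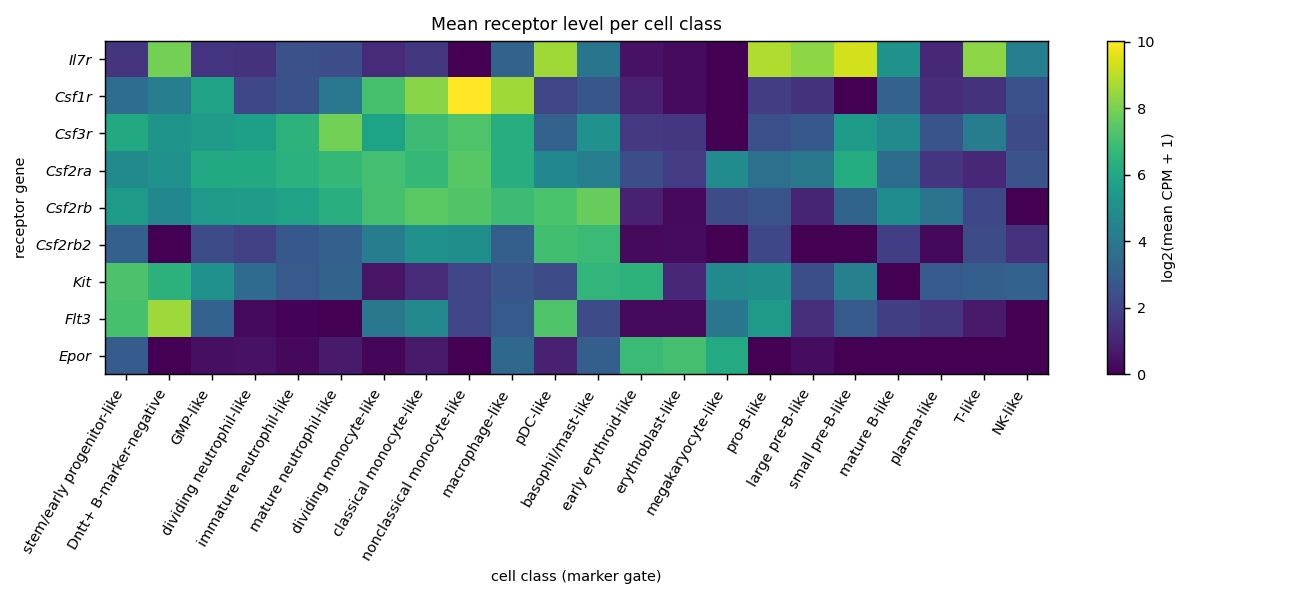
Mean level of each receptor gene (rows) in the 22 ranked cell classes (columns), as log2(mean CPM + 1) over the mice with at least 10 cells. Epor is high in both erythroid classes, and Csf3r, Csf2ra and Csf2rb span the myeloid classes.

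Among the tyrosine kinase receptors, Kit was highest in stem/early progenitor-like cells, where the lowest mouse had 117 CPM, the median was 158 and the highest was 176. Basophil/mast-like cells followed with a mean of 96.2 ± 50.4 CPM (SD, n = 9 mice), early erythroid-like cells with 88.6 ± 14.5 (n = 9) and granulocyte-monocyte precursor (GMP)-like cells with 32.1 ± 7.03 (n = 9). The cells that carried Dntt RNA without B-cell markers, a class named by its gate (Dntt+) and held by 6 mice, had 85.4 ± 29.1 CPM. Basophil/mast-like and early erythroid-like cells could not be put in order, since 5 of 9 mice had the higher value in the former. In mature B-like cells no Kit UMI was found.

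Flt3 was highest in the Dntt+ cells, at a mean of 377 ± 142 CPM (SD, n = 6). It was higher there than in plasmacytoid dendritic cell (pDC)-like cells in all 6 mice that held both. The pDC-like class had 154 ± 47.6 CPM (SD, n = 9) and stem/early progenitor-like cells 136 ± 38.6 (SD, n = 9), with overlapping mice. Csf1r was highest in nonclassical monocyte-like cells, with 750 CPM in the lowest of 8 mice, a median of 1076 and 1414 in the highest, and lay above every classical monocyte-like value (217 to 366 CPM). Macrophage-like cells had 382 ± 190 CPM (SD, n = 7), a wide spread that takes in the classical monocyte-like values.

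Among the cytokine receptors, Il7r was highest in small pre-B-like cells at 652 ± 179 CPM (SD, n = 6, all NZW or NZBWF1, since NZB mice had too few of these cells). Pro-B-like cells followed at 452 ± 73.9 (SD, n = 8), pDC-like cells at 389 ± 76.4 (n = 9), large pre-B-like cells at 319 ± 51.2 (n = 9) and T-like cells at 306 ± 173 (n = 9). In the pDC-like class, B-cell markers summed to 4.79 to 27.4 CPM, against Siglech and the other pDC markers at 3004 CPM or more. The gate itself largely sets these sums, since it asked for pDC markers and left out cells that also passed the B-cell gate. The cell source of the Il7r RNA in this class was not tested. Epor was highest in erythroblast-like cells, with a lowest value of 107 CPM, a median of 125 and a highest of 193, and early erythroid-like cells had 113 ± 8.92 CPM (SD, n = 9). Csf3r was highest in mature neutrophil-like cells, where the 9 mice lay between 195 and 276 CPM.

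The chains of the GM-CSF receptor were spread over myeloid classes. Csf2ra had 169 ± 79.8 CPM in nonclassical monocyte-like cells (SD, n = 8) and 129 ± 35.5 in dividing monocyte-like cells (SD, n = 9). Csf2rb had 205 ± 50.2 CPM in basophil/mast-like cells and 173 ± 37.4 in classical monocyte-like cells (SD, n = 9 each). Csf2rb2 was highest in pDC-like cells at 127 ± 33.3 CPM and basophil/mast-like cells at 114 ± 71.7 (SD, n = 9 each), and the latter exceeded the third class, classical monocyte-like cells at 32.5 ± 9.83, in 9 of 9 mice. Across the 189 pairs of classes that were neighbours in the order of a receptor, an exact two-sided sign-flip permutation test over paired mice gave no adjusted p under 0.05. With 9 mice its smallest p is 0.00391, which 5 pairs reached, and adjustment over 189 pairs brought these to 0.148, so that no neighbours in these orders were told apart by this test at this number of mice.

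The share of cells with a UMI, after each cell was thinned to 1000 UMIs, was highest, over all cells of a class, in the class of highest level for each receptor but Csf2rb2. The Csf2rb2 share was 15.8% (exact binomial interval 10.9% to 21.8%) in basophil/mast-like and 12.1% (10.8% to 13.6%) in pDC-like cells, against the order of their levels, and no order is read from it. As a mean over mice the Epor share was 11.9% in megakaryocyte-like cells of 3 mice and 10.4% in erythroblast-like cells. The share was 64.2% (exact binomial interval over all cells 55.9% to 71.9%) for Csf1r in 148 nonclassical monocyte-like cells, as compared to 0 of 1203 large pre-B-like cells, of which 0.166% had a Csf1r UMI before thinning. It was 43.9% (38.3% to 49.6%) for Il7r in small pre-B-like cells against 1.27% in NK-like cells, 33.1% (25.5% to 41.4%) for Flt3 in the Dntt+ class against 0 of 394 NK-like cells (up to 0.932%), and 19.5% (17.5% to 21.7%) for Csf3r in mature neutrophil-like cells against 1.09% in T-like cells. Epor, in 10.6% of thinned erythroblast-like cells (8.38% to 13.2%), was found in 57.0% of the same cells before thinning. These intervals cover counting error only. Free RNA, taken as the median over barcodes under 100 UMIs and above a low cut, was 12 to 17 UMIs per barcode. That is 0.494% to 0.807% as many UMIs as a median cell of the same mouse. The low cut in part sets this level.

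Steps between classes that follow each other in a lineage were tested with edgeR's quasi-likelihood test, mice as blocks, over all genes of the step (Benjamini-Hochberg adjusted p under 0.05 and at least a 2-fold change). Of 62 receptor tests in 13 steps, 32 passed, 16 with more and 16 with less in the later class. The order of classes is that of textbook hematopoiesis and not a measured descent.

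**Figure D2:**
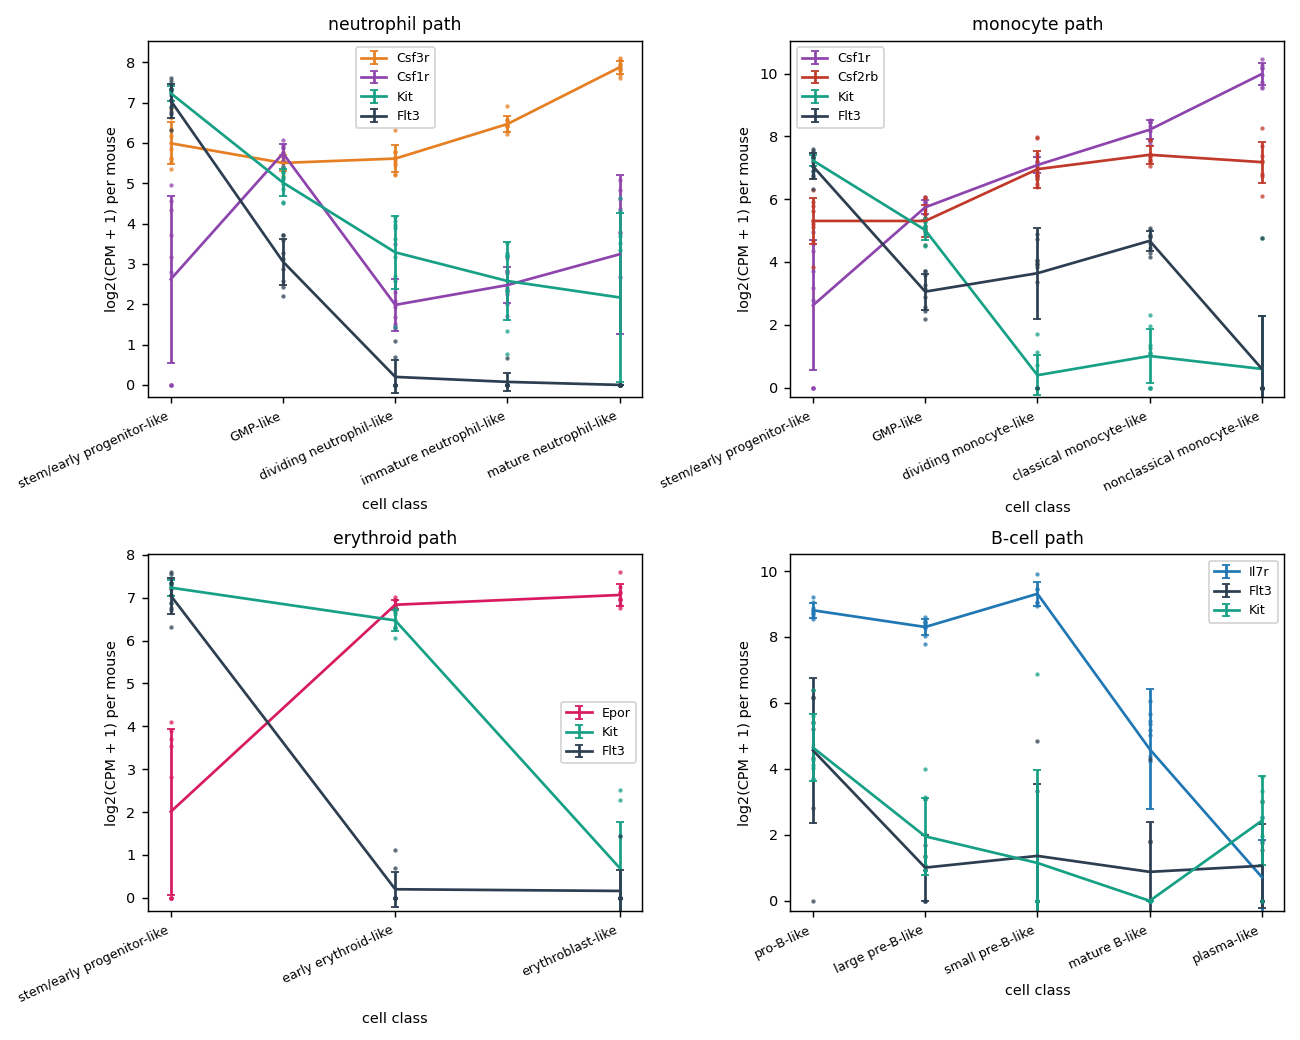
Receptor levels along 4 lineages, as log2(CPM + 1) per mouse (points) with mean and SD over mice (lines and bars), on a class axis. Kit and Flt3 are high in stem/early progenitor-like cells, Csf3r is high in mature neutrophil-like cells, Csf1r in nonclassical monocyte-like cells, Epor in both erythroid classes and Il7r in the B-cell precursor classes.

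From stem/early progenitor-like to GMP-like cells, 4 of 6 receptors passed, where 21% of all genes did. Flt3 fell by 3.80 on the log2 scale (SE 0.21) and Kit by 1.99 (SE 0.16), while Csf1r rose by 2.52 (SE 0.31) and Csf2ra by 1.74 (SE 0.24). Csf2rb and Csf3r changed by 0.15 (SE 0.21) and -0.25 (SE 0.19) and did not pass. Towards early erythroid-like cells, 5 of 6 passed (30.4% of all genes). Epor rose by 4.06 (SE 0.31), and Flt3 (-8.25, SE 0.36), Csf2rb (-5.29, SE 0.42), Csf3r (-4.76, SE 0.37) and Csf2ra (-2.44, SE 0.42) fell. All early erythroid-like cells together held 3 Flt3, 12 Csf2rb, 26 Csf3r and 52 Csf2ra UMIs, so the sizes of these falls rest on few counts. Kit, at -0.73 (SE 0.14), was below the 2-fold limit. From early erythroid-like to erythroblast-like cells Kit fell by 5.26 (SE 0.24), the 1 receptor of 2 tested that passed (20.5% of all genes), and Epor differed by 0.40 (SE 0.08). All erythroblast-like cells together held 9 Kit UMIs.

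In the neutrophil classes the colony-stimulating factor receptors parted. From GMP-like to dividing neutrophil-like cells, 3 of 7 receptors passed (39.1% of all genes). Flt3 fell by 4.18 (SE 0.50, with 3 UMIs over all dividing neutrophil-like cells), Csf1r by 3.38 (SE 0.18) and Kit by 1.04 (SE 0.16). This Kit value was close to the 2-fold limit and lay at -0.90 without NZB replicate 2 and at -0.99 without NZBWF1 replicate 2. It also missed the limit with at least 2000 UMIs per cell (-0.91), without doublet removal (-0.90), with classes from clusters (-0.89) and without the mouse block (-0.99). Csf3r rose by 1.11 (SE 0.08) to immature neutrophil-like cells, where 3 of 7 receptors passed (23.6% of all genes), and by a further 1.30 (SE 0.09) to mature neutrophil-like cells, where 2 of 5 passed (19.7%). The first of these rises was under 2-fold with at least 2000 UMIs per cell (0.75) and with classes from clusters (0.88). The others that passed were Csf2rb2 (1.10) and Il7r (1.42) in the former step and Csf1r (1.46) in the latter, all from low levels. Csf2rb2 missed the 2-fold limit without NZW replicate 3 (0.97) or NZBWF1 replicate 1 (0.95). With classes taken from clusters in place of gates the Il7r and Csf1r values turned to -0.71 and -0.19, and without doublet removal they were 0.49 and 0.87 and did not pass. With stricter gates the Csf1r call was lost as well (1.30, edgeR adjusted p = 0.0914).

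In the monocyte classes Csf1r passed at each of 3 steps. It rose by 1.05 (SE 0.08) from GMP-like to dividing monocyte-like cells, by 1.16 (SE 0.08) to classical and by 1.49 (SE 0.15) to nonclassical monocyte-like cells. The first of these steps had 4 of 7 receptors (24.5% of all genes). Csf2rb2 rose by 1.83 (SE 0.26) and Csf2rb by 1.42 (SE 0.09), and Kit fell (-5.75, SE 0.32, with 4 UMIs over all dividing monocyte-like cells). The second had 2 of 6 (14.4%), Csf3r being the other at 1.11 (SE 0.12), and the third 1 of 4 (13.2%) over 8 mice. In the second step neither Csf3r (0.71) nor Csf1r (0.91) reached 2-fold with at least 2000 UMIs per cell, nor did Csf3r with classes from clusters (0.95).

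In the B-cell classes Il7r was present from the pro-B-like stage on and dropped after the small pre-B-like stage. The Dntt+ cells without B-cell markers, which are part of no tested step, also held Il7r, at 243 ± 109 CPM (SD, n = 6). From pro-B-like to large pre-B-like cells (8 mice), 2 of 3 receptors passed (9.47% of all genes): Flt3 fell (-4.47, SE 0.54), as did Kit (-3.50, SE 0.54), and Il7r differed by -0.41 (SE 0.09). All large pre-B-like cells together held 7 Flt3 and 10 Kit UMIs. Il7r fell by 3.84 (SE 0.18) from small pre-B-like to mature B-like cells (2 of 3 receptors, 14.4% of all genes) and by 1.84 (SE 0.65) from mature B-like to plasma-like cells (1 of 3, 33.4%). This last step rests on another 6 mice, all NZB or NZBWF1, and on few Il7r UMIs, with 8 over all plasma-like cells and 0 CPM in each of the 3 NZB mice. From large to small pre-B-like cells (2 of 3, 31.5%), Csf3r and Csf2ra rose by 2.74 (SE 0.63) and 1.88 (SE 0.48), and Csf2ra fell by 1.63 (SE 0.55) in the next step. All small pre-B-like cells together held 16 Csf3r and 20 Csf2ra UMIs, and Csf3r was at 0 CPM in NZBWF1 replicates 1 and 2. The steps of small pre-B-like cells rest on 6 NZW and NZBWF1 mice, and its Csf3r and Csf2ra calls were not stable. With stricter gates the Csf3r rise (1.84) and the Csf2ra fall (-1.60) did not pass, and with classes from clusters neither the Csf2ra rise (0.85) nor its fall (-0.88) did.

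The strains were then compared within each class, to ask whether receptor levels of NZBWF1 mice differ from those of either parent and whether the parents differ. Between the parents, 17 of 53 receptor tests in 17 classes passed (edgeR's quasi-likelihood test, adjusted p under 0.05 within the class), as compared to 8.02% of all tests over genes. NZB had the higher level in 10, where 4.12% of all tests were called in that direction, and the lower in 7, where 3.9% were. Tests of 1 receptor in several classes share the same mice and are not independent. Without NZW replicate 3 the 17 calls became 11. NZBWF1 differed from NZB in 7 of 53 tests (3.23% of all tests over genes), which became 3 when NZB replicate 2 was left out. The count was 3 with NZBWF1 replicate 2 left out and 2 with its replicate 3 left out. With DESeq2 the 17 and 7 calls became 7 and 3, and with at least 2000 UMIs per cell also 7 and 3.

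NZBWF1 differed from NZW in 0 of 53 tests by edgeR (0.899% of all tests over genes) and from the mean of both parents in 0 (0.478%). DESeq2 also called 0 in each of these contrasts. Other settings did call some, against both parents 3 with classes from clusters, 3 without a filter on low counts, 1 with the replicate block and 1 without NZB replicate 1, and against NZW 1 with the replicate block and 1 without NZW replicate 1. The lowest adjusted p values were 0.0737 for Flt3 in pDC-like cells against NZW and 0.0866 for Csf1r in classical monocyte-like cells against both parents.

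**Figure D3:**
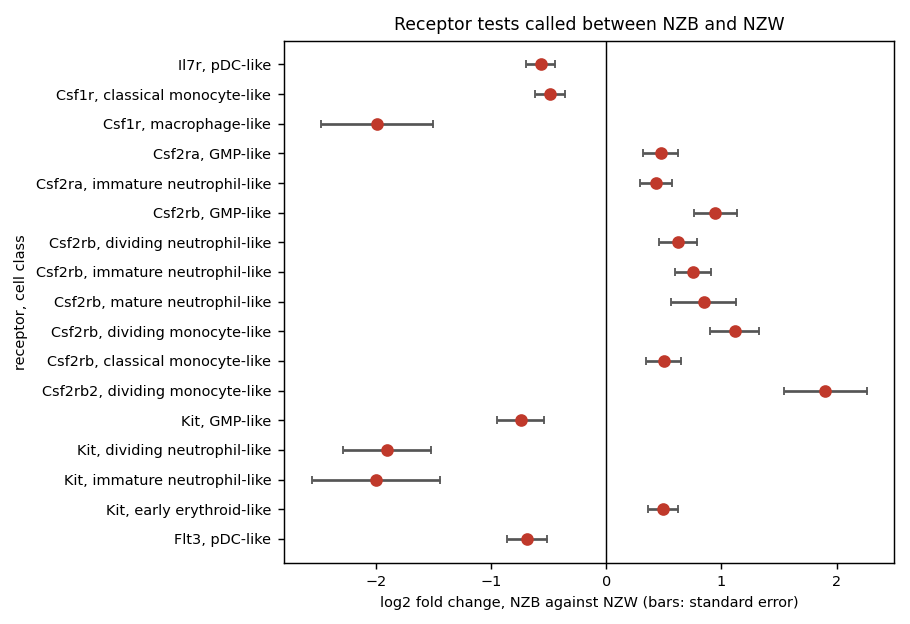
Log2 fold change of NZB against NZW (x axis, bars are standard errors) for the 17 receptor tests that passed, with positive values where NZB was higher. All 6 Csf2rb values lie above 0, and Kit lies below 0 in 3 classes and above 0 in early erythroid-like cells.

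Csf2rb, the shared beta chain, was higher in NZB than in NZW in 6 of the 9 classes tested. Basophil/mast-like cells, the class of its highest level, were not called and overlapped. They had 242, 157 and 110 CPM in NZB and 190, 287 and 215 in NZW. For pDC-like and mature B-like cells, also not called, every NZB value lay above every NZW value. In dividing monocyte-like cells the NZB mice had 119, 252 and 244 CPM, the NZW mice 83.5, 99.97 and 109, and the NZBWF1 mice 101, 108 and 89.0. The 3 NZB values lie above all 6 others, with replicate 1 the nearest to them. NZB differed from NZW there by 1.12 on the log2 scale (SE 0.21, edgeR adjusted p = 0.00214) and NZBWF1 from NZB by -1.14 (SE 0.23, adjusted p = 0.00670). In immature neutrophil-like cells the NZB mice had 59.6, 74.1 and 62.5 CPM and the NZW mice 45.1, 39.6 and 48.0, without overlap, a difference of 0.75 (SE 0.15, edgeR adjusted p = 0.00136).

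In the dividing monocyte-like class 7 neutrophil markers summed to 357 to 617 CPM in NZB and 232 to 277 in NZW, and their part was not tested. The other 4 classes with a call pointed the same way. The differences were 0.95 (SE 0.19) in GMP-like cells, 0.62 (SE 0.17) in dividing neutrophil-like cells, 0.85 (SE 0.28) in mature neutrophil-like cells and 0.50 (SE 0.15) in classical monocyte-like cells. NZBWF1 was also lower than NZB in GMP-like (-0.71, SE 0.18), immature neutrophil-like (-0.54, SE 0.15) and classical monocyte-like cells (-0.56, SE 0.16). With classes from clusters, GMP-like cells gave 0.57 and mature neutrophil-like cells 0.56 between the parents, and NZBWF1 against NZB gave -0.42 in GMP-like and -0.35 in immature neutrophil-like cells, none of which passed. The values in dividing monocyte-like and immature neutrophil-like cells between the parents passed under every alternative that gave a value, and the others did not. Between the parents, the call was lost without NZB replicate 2 in dividing neutrophil-like (0.33) and classical monocyte-like cells (0.41), and in the latter also without NZB replicate 3 (0.44) or NZW replicate 3 (0.37). In mature neutrophil-like cells it was lost without any 1 of 7 mice, all but NZB replicate 2 and NZBWF1 replicate 1, with values from 0.73 to 0.92. DESeq2 lost the calls in dividing neutrophil-like (0.61), mature neutrophil-like (0.84) and classical monocyte-like cells (0.50). With at least 2000 UMIs per cell dividing neutrophil-like (0.60) and classical monocyte-like cells (0.47) did not pass, and without a filter on low counts mature neutrophil-like (0.91) and classical monocyte-like cells (0.44) did not. The mature neutrophil-like call was also lost with at most 5% mitochondrial UMIs (0.83) and with p-values adjusted over all classes.

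The calls of NZBWF1 against NZB were less steady. In dividing monocyte-like cells the call was lost without NZBWF1 replicate 1 (-1.13), 2 (-1.23) or 3 (-1.06). In GMP-like cells it was lost without NZB replicate 2 (-0.53) or NZBWF1 replicate 2 (-0.69) or 3 (-0.64), and in classical monocyte-like cells without NZB replicate 2 (-0.47) or 3 (-0.50) or NZBWF1 replicate 2 (-0.54) or 3 (-0.54). In immature neutrophil-like cells it was lost without any 1 of 7 mice, all but NZW replicates 1 and 2, with values from -0.44 to -0.63. In GMP-like, immature neutrophil-like and classical monocyte-like cells it was also lost with DESeq2 (-0.68, -0.55 and -0.56) and with at most 5% mitochondrial UMIs (-1.04, -0.52 and -0.48). The GMP-like call did not pass with stricter gates (-0.58), the classical monocyte-like call with at least 2000 UMIs per cell (-0.72), or the immature neutrophil-like call without a filter on low counts (-0.54) or with p-values adjusted over all classes.

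**Figure D4:**
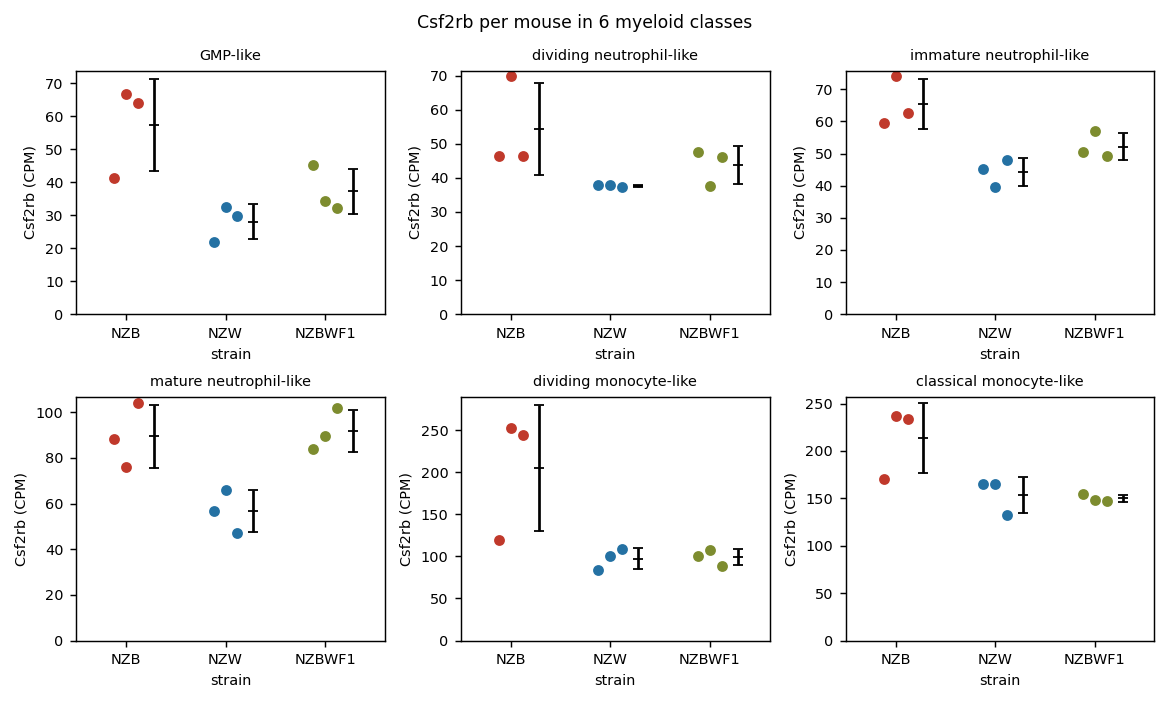
Csf2rb level (CPM) per mouse (points) with mean and SD (black) for the 3 strains in 6 myeloid classes. In dividing monocyte-like cells the NZB mice sit between 119 and 252 CPM and the NZW mice between 83.5 and 109.

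Csf2rb2, the neighbour of Csf2rb on chromosome 15, was also higher in NZB dividing monocyte-like cells, with 20.7, 34.3 and 30.7 CPM against 1.58, 8.33 and 12.4 in NZW. NZBWF1 mice had 15.7, 24.5 and 15.4 CPM, between the parents apart from an overlap of replicate 2 with the lowest NZB mouse. The difference between the parents was 1.90 (SE 0.36, edgeR adjusted p = 9.52e-05) and passed under every alternative tried. In basophil/mast-like cells the NZB mice had 45.4, 39.3 and 73.3 CPM and the NZW mice 206, 191 and 137, which did not pass (-1.80, edgeR adjusted p = 0.160). With the UMIs of both beta chains summed, a test added after the data were seen, the 6 classes in which Csf2rb was called between the parents remained called, with 1.19 (SE 0.23) in dividing monocyte-like cells. The call of NZBWF1 against NZB in immature neutrophil-like cells was lost (-0.50, edgeR adjusted p = 0.0634). Between the parents, the sum in basophil/mast-like cells was lower in NZB and was not called (-0.89, SE 0.30, edgeR adjusted p = 0.165).

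Csf2ra, the GM-CSF-binding chain, was higher in NZB in 2 of 8 classes. GMP-like cells of NZB mice had 84.2, 88.3 and 75.7 CPM and those of NZW mice 50.2, 51.1 and 66.7, without overlap (0.47, SE 0.15, edgeR adjusted p = 0.0268). In immature neutrophil-like cells the strains overlapped, with 80.5 to 111 CPM in NZB and 73.9 to 86.0 in NZW (0.43, SE 0.14), and NZBWF1 was lower than NZB (-0.58, SE 0.14). None of these Csf2ra calls was stable. Between the parents, GMP-like cells gave 0.10 with at most 5% mitochondrial UMIs (edgeR adjusted p = 0.918) and 0.24 with classes from clusters, and immature neutrophil-like cells 0.06 with at least 2000 UMIs (edgeR adjusted p = 0.979) and 0.26 with classes from clusters. They were also lost with DESeq2, the former with stricter gates (0.40) and the latter without doublet removal (0.44), without a filter on low counts (0.42) and with p-values adjusted over all classes. NZBWF1 against NZB in immature neutrophil-like cells was lost with at least 2000 UMIs per cell (-0.49), with classes from clusters (-0.41) and with DESeq2 (-0.59). In GMP-like cells the call was lost without NZB replicate 1 (0.46) or 2 (0.41) or NZW replicate 1 (0.42) or 2 (0.39). In immature neutrophil-like cells it was lost between the parents without NZB replicate 1 (0.42) or 3 (0.34), NZW replicate 2 (0.37) or 3 (0.41) or NZBWF1 replicate 2 (0.44) or 3 (0.44), and against NZBWF1 without NZB replicate 3 (-0.50) or NZBWF1 replicate 2 (-0.59) or 3 (-0.53).

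Kit was lower in NZB along the neutrophil classes. In dividing neutrophil-like cells the NZB mice had 5.54, 1.71 and 4.93 CPM, the NZW mice 15.6, 11.3 and 13.7 and the NZBWF1 mice 17.04, 7.95 and 14.7. All NZB values lie below the rest. NZB differed from NZW by -1.91 (SE 0.38, edgeR adjusted p = 0.000238), which passed under every alternative tried, and NZBWF1 from NZB by 1.74 (SE 0.40), which did not pass without NZB replicate 2 (1.18) or without doublet removal (1.03). GMP-like cells had 27.8, 21.6 and 22.3 CPM in NZB and 37.9, 38.1 and 34.8 in NZW (-0.74, SE 0.20), with the call lost without NZB replicate 2 (-0.65). Immature neutrophil-like cells had 0.71 to 4.04 CPM in NZB and 8.19 to 10.4 in NZW (-2.00, SE 0.56), from 75 Kit UMIs over all 9 mice, with the call lost without NZB replicate 2 (-1.55) or 3 (-1.82) or NZW replicate 3 (-1.90). Both of these calls were also lost with DESeq2 (-0.73 and -2.00).

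In GMP-like cells other marker genes differed between the same mice. The 8 dividing-cell markers summed to 1775 to 2130 CPM in NZB and 1393 to 1609 in NZW, and 5 B-cell markers to 1.79 to 20.4 in NZB and 46.1 to 53.7 in NZW. The 11 stem and progenitor markers overlapped, with 111 to 151 CPM in NZB and 146 to 172 in NZW. Their part in the differences of Kit, Csf2rb and Csf2ra in GMP-like cells was not tested. When classes were taken from clusters in place of gates, the GMP-like Kit difference was -0.33 and did not pass, and with at most 5% mitochondrial UMIs it was -1.48 and did not pass.

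In early erythroid-like cells Kit was higher in NZB, with 101, 107 and 88.7 CPM against 77.5, 77.2 and 65.8 in NZW and 104, 96.8 and 79.2 in NZBWF1. The parents did not overlap (0.49, SE 0.13, edgeR adjusted p = 0.0105). In the same class the stem and progenitor markers were lower in NZB (51.6 to 55.7 CPM) than in NZW (92.7 to 98.6), and their part was not tested. The call was lost without NZB replicate 2 (0.39) or NZW replicate 3 (0.39) and with DESeq2 (0.48). With at most 5% of UMIs from mitochondrial genes the value was -0.15, on 142 of the 1058 cells.

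**Figure D5:**
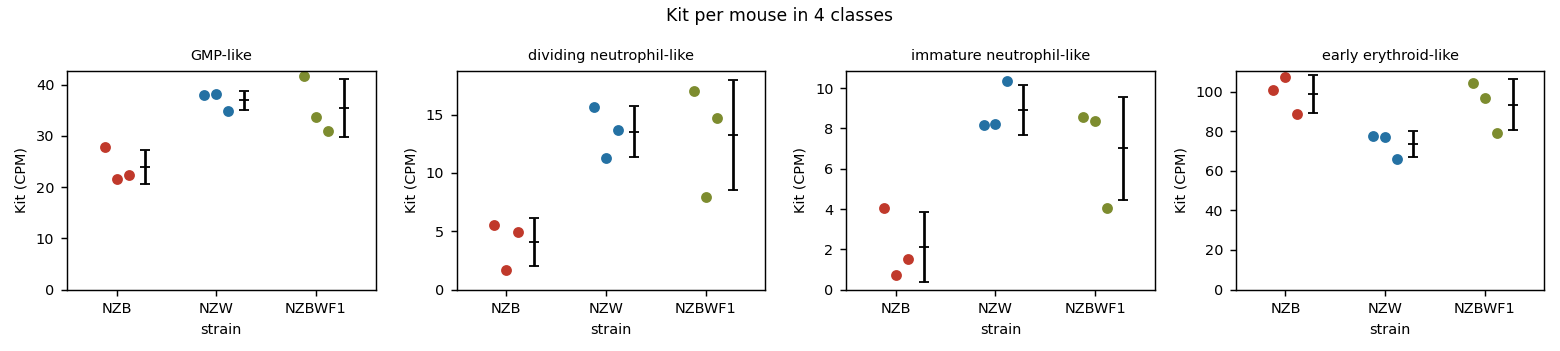
Kit level (CPM) per mouse (points) with mean and SD (black) for the 3 strains in 4 classes. NZB mice are below the NZW mice in GMP-like, dividing and immature neutrophil-like cells and above them in early erythroid-like cells.

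Csf1r was lower in NZB classical monocyte-like cells, with 217, 231 and 237 CPM as compared to 290, 322 and 348 in NZW and 366, 347 and 351 in NZBWF1. No NZB value reached those of the other strains (NZB against NZW -0.49, SE 0.13, edgeR adjusted p = 0.00695, and NZBWF1 against NZB 0.60, SE 0.13, adjusted p = 0.00186). Both calls held when any 1 mouse was left out and were lost with at least 2000 UMIs per cell (-0.28 and 0.54). In these classical monocyte-like cells the 4 monocyte markers summed to 5770 to 6903 CPM in NZB and 7546 to 8206 in NZW, and the 7 neutrophil markers to 500.3 to 715 in NZB and 271 to 285 in NZW. Their part in the differences of Csf1r and Csf2rb was not tested. In macrophage-like cells Csf1r was at 199 and 84.7 CPM in 2 NZB mice and at 470, 588 and 498 in NZW (-1.99, SE 0.48, n = 7 mice, since NZB replicate 2 and NZBWF1 replicate 1 held under 10 such cells). The complement genes C1qa, C1qb and C1qc that define this class summed to 1948 to 3069 CPM in NZB and 10105 to 16253 in NZW, the monocyte markers to 2841 to 4375 and 1205 to 1530, and their part in the difference was not tested. Without NZB replicate 3 the value was -1.49 and the call was lost, as it was with DESeq2 (-2.04, adjusted p = 0.0502).

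In pDC-like cells Il7r and Flt3 were both lower in NZB. Il7r was at 294, 308 and 327 CPM in NZB, 428, 502 and 479 in NZW and 443, 358 and 362 in NZBWF1, with all NZB values below the rest (NZB against NZW -0.57, SE 0.13, edgeR adjusted p = 0.00139). Flt3 was at 110, 144 and 118 CPM in NZB and 146, 215 and 252 in NZW, with the highest NZB mouse just under the lowest NZW mouse (-0.69, SE 0.18, edgeR adjusted p = 0.00661). The Flt3 call was lost without NZW replicate 2 (-0.65) or 3 (-0.52), and both calls with at least 2000 UMIs per cell (Il7r -0.28, Flt3 -0.66). The Flt3 call was also lost with stricter gates (-0.57) and with DESeq2 (-0.70). The pDC markers themselves differed, summing to 4347 to 4839 CPM in NZB and 3004 to 3393 in NZW, which was not tested as a part of either difference. Csf3r and Epor passed in none of the 8 and 2 classes in which they were tested between the parents. Their lowest adjusted p was that of Csf3r in dividing neutrophil-like cells, 0.0599 at 0.48 (SE 0.16).

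The partners of these receptors were read from 5 lists, which held 47 calls between the parents. These became 22 with DESeq2, 27 without NZB replicate 2, 30 without NZW replicate 2 and 29 without NZW replicate 3. Of 7 partner subunits and sister receptors, 6 could be tested, and 9 of their 39 tests between the parents passed, 8 with less in NZB (median of all 39 tests -0.24, and -0.01 over all genes). Over all genes 8.02% of tests passed, and 3.9% with less in NZB. Il3ra, the chain that binds interleukin 3 and pairs with both beta chains, was lower in NZB in 4 classes. In GMP-like cells it was at 16.1, 13.1 and 16.5 CPM in NZB, 47.6, 46.8 and 42.6 in NZW and 29.5, 36.4 and 29.4 in NZBWF1, with NZBWF1 between its parents and no overlap (NZB against NZW -1.72, edgeR adjusted p = 2.01e-10). In dividing monocyte-like cells, where both beta chains were higher in NZB, Il3ra was at 22.4, 25.2 and 26.3 CPM in NZB and 45.7, 47.6 and 59.6 in NZW (-1.03, edgeR adjusted p = 0.000625). Il6ra was lower in NZB in 3 myeloid classes (-0.45 to -1.07), and Crlf2, the thymic stromal lymphopoietin receptor chain that pairs with Il7r, was higher in NZB immature neutrophil-like cells (0.63).

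Of the 8 target genes of these pathways, 27 of 82 tests between the parents passed, 19 with more in NZB (median 0.11), where 8.02% of tests over all genes passed and 4.12% with more in NZB. Pim1, a kinase gene induced by STAT5, was at 167, 286 and 177 CPM in NZB classical monocyte-like cells and at 59.2, 38.3 and 54.2 in NZW (2.09, edgeR adjusted p = 2.20e-10). NZBWF1 lay at the NZW level with 43.6, 59.6 and 49.5 CPM, and Pim1 was called against the mean of both parents in 4 classes (-0.79 to -1.12). The 1 other target call of that contrast was Bcl2, which inhibits apoptosis, and was higher in NZBWF1 dividing monocyte-like cells (1.14, edgeR adjusted p = 0.0258). Over all genes 0.478% of tests passed in that contrast. These 5 calls, the only ones of the lists against both parents, became 1 with DESeq2, 1 without NZBWF1 replicate 2, 2 without NZBWF1 replicate 3 or NZW replicate 3 and 9 without NZB replicate 1. Of the inhibitors, 4 of 57 tests passed, a share close to the 8.02% of all genes, 3 of them with less in NZB (median -0.12). These were Cbl, a ubiquitin ligase that acts on activated receptors, in classical monocyte-like (-0.53) and early erythroid-like cells (-0.71), and the phosphatase gene Ptpn6 in mature neutrophil-like cells (-0.54). The other, Socs3, which restrains JAK and STAT signalling, was at 33.4, 92.3 and 81.04 CPM in NZB classical monocyte-like cells and between 0 and 6.77 in NZW (4.34, edgeR adjusted p = 2.04e-06). Of the Janus kinases and STATs, 6 of 81 tests passed, also close to that share, with Stat3 higher in NZB in 3 classes, by 0.92 in dividing monocyte-like, 0.56 in dividing neutrophil-like and 0.54 in immature neutrophil-like cells.

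Of the ligands, Kitl reached 109 CPM in small pre-B-like, Csf1 86.3 in basophil/mast-like and Flt3l 47.0 in T-like cells, and the other 6 stayed under 20 CPM in every class. The Kitl value rests on few counts, with 77 Kitl UMIs over all classes together. It is a mean over 6 mice, of which NZW replicate 2 and NZBWF1 replicate 2 held 12 such cells each. No main source of Kitl is read from it. Only Tslp and Flt3l could be tested among 9, in 2 tests. Epo had no UMI in any class and Csf3 had 1, and Tslp was lower in NZB GMP-like cells (-1.19, edgeR adjusted p = 0.0480). Along the 13 steps, in which 9.47% to 39.1% of all genes passed, 19 target gene tests rose and 21 fell out of 76, 17 inhibitor tests rose and 15 fell out of 61, 9 tests of Janus kinases and STATs rose and 7 fell out of 83, 7 partner tests rose and 12 fell out of 46, and 2 of 3 ligand tests fell.

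The genes whose class means were most like those of each receptor, by Pearson's r of log2(CPM + 1) over 22 classes, are given as a description, since the points share their libraries. They were Jakmip1 (0.90), Rhoh and Cd72 for Il7r, Abca9 (0.94), Cd302 and Ptpro for Csf1r, and Cd300lb (0.90), Spi1 and B430010I23Rik for Csf3r. For the GM-CSF receptor chains they were Sort1 (0.95), Hlx and Itpripl2 for Csf2ra, Adssl1 (0.89), Nfam1 and Cd300a for Csf2rb, and Tmem219 (0.85) and Cask for Csf2rb2. Fam69b (0.77), Dnajc6 and Muc13 were nearest to Kit, Arhgap32 (0.87), Fgfr1 and Ifi44 to Flt3, and C530008M17Rik (0.96), Mfsd2b and Tcf15 to Epor.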

How the data were processed

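Single-cell RNA-seq libraries (10x 3′ chemistry) were processed by the authors with bcl2fastq 2.20 and Cell Ranger 3.1.0 against mm10, per the labels. The deposited values were UMI counts per gene and barcode, not normalized. Barcodes with at least 1000 UMIs, 500 genes and at most 10% mitochondrial UMIs were kept, and the highest doublet scores (scanpy 1.11.5, 0.8% per 1000 barcodes) were removed. Cells were gated on marker genes, and counts were summed per class and mouse.

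Strains were compared with the quasi-likelihood test of edgeR 4.0.16 (TMM, filterByExpr), contrasts being NZB against NZW, NZBWF1 against each parent and against their mean. Alternatives were DESeq2 1.42.0, other limits on UMIs and mitochondrial share, no doublet removal, stricter gates, classes from Leiden clusters, no filter on low counts, a block for the replicate number, and fits without each mouse in turn. Nothing in the labels says more of the mice than their strain and number, so p-values measure the spread between these libraries. In the text, all 9 receptors were named in every class, of each list up to 2 called genes of smallest p per class or step, and the 3 genes of most similar pattern, of which 1 is not reported here. Members and lists were chosen with earlier results of these data known. The interaction fits of Kit were added after its values were seen. Tested on simulated counts for NZB against NZW, 4-fold changes of genes over 50 UMIs a mouse were recovered in 100% in classical monocyte-like, GMP-like and T-like cells, and 2-fold changes of all genes simulated in 47.5%, 58.2% and 51.1%. An initial aim of 70% for 2-fold changes was not met, and the test then asked for recovery only of 4-fold changes above that depth.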

Additional observations from a re-analysis of the deposited data

Results flagged for a closer look

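The difference of Kit between NZB and NZW was not the same in all classes, by a test of the difference itself in 1 edgeR fit over both classes with mice as blocks. The NZB against NZW log2 fold change of early erythroid-like cells exceeded that of GMP-like cells by 1.24 (SE 0.24, edgeR adjusted p = 2.02e-05), that of dividing neutrophil-like cells by 2.35 (SE 0.39, edgeR adjusted p = 8.84e-07) and that of immature neutrophil-like cells by 2.45 (SE 0.54, edgeR adjusted p = 0.000851). Of all genes in these 3 fits, 5.48%, 2.13% and 2.57% had an adjusted p under 0.05. The pairs of classes were chosen after the values of Kit had been seen. With at most 5% mitochondrial UMIs, which kept 13.4% of early erythroid-like and 19.2% of GMP-like cells, the differences were 0.94, 2.01 and 2.04 over 7 mice and had edgeR adjusted p values of 0.922, 0.337 and 0.500.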

How the results depend on the processing

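Of the 24 receptor calls between strains, 4 passed under every alternative that gave a value and 1 turned sign, and of the 32 calls between classes 22 passed under all and 2 turned sign. The reversals were Kit in early erythroid-like cells between the parents (-0.15 with at most 5% mitochondrial UMIs) and, with classes from clusters, Il7r (-0.71) and Csf1r (-0.19) in the neutrophil steps. The cause was not tested.

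Receptor calls between NZB and NZW numbered 17, but 7 with at least 2000 UMIs and 1000 genes, 11 with at most 5% mitochondrial UMIs and 7 with DESeq2, and 11 to 20 without 1 mouse, the lowest without NZW replicate 3. NZBWF1 against NZB had 7, but 3 with at least 2000 UMIs, 3 with DESeq2 and 2 to 7 without 1 mouse. Against both parents there were 0, but 3 with classes from clusters, 3 without a filter on low counts, 1 with the replicate block and 0 to 1 without 1 mouse, and against NZW 0, but 1 with the replicate block and 0 to 1 without 1 mouse. The 32 calls between classes became 20 with at least 2000 UMIs, 18 with classes from clusters and 19 with no mouse block. Partner list calls between NZB and NZW numbered 47, but 22 with DESeq2 and 27 to 51 without 1 mouse (27 without NZB replicate 2, 30 without NZW replicate 2 and 29 without NZW replicate 3). For NZBWF1 against NZB they numbered 27, but 16 with DESeq2 and 12 to 30 without 1 mouse, against both parents 5, but 1 with DESeq2 and 1 to 9 without 1 mouse, and against NZW 0, but 1 without a filter and 0 to 1 without 1 mouse.

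Levels moved by more than 1 SD with stricter gates for Il7r in small pre-B-like (843 CPM) and Csf3r in mature neutrophil-like cells (268), for Csf2rb in basophil/mast-like cells with classes from clusters (266) or as a mean over cells (313), and for Csf2rb2 in pDC-like cells with at least 2000 UMIs (92.2). Without thinning, mean shares were 74.7% for Csf1r, 34.7% for Csf3r, 45.4% for Csf2rb, 20.8% for Csf2rb2, 45.2% for Kit, 72.7% for Flt3 and 58.1% for Epor.

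Replicate numbers were not taken as pairing the mice, since the labels do not say what a number stands for and not every same-numbered pair correlated above 0.1 in its deviations. In GMP-like cells 0 of 9 such pairs did (-0.11 to 0.09), but in immature and mature neutrophil-like cells 6 of 9 did (medians 0.14 and 0.13, against -0.03 and -0.12 for other pairs) and in pDC-like cells 3 of 9, so that a factor shared by number is possible there. With the replicate block NZB against NZW had 19 receptor calls and NZBWF1 against NZB 8. Where 1 mouse was left in a strain it was assumed to vary like the others. Simulated 2-fold changes were found in about 1 of 2 genes, so that changes of this size can be missed.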

Other observations

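The receptors were also present among the 9172 cells that were placed in no class. Il7r had 173 CPM there, Csf3r 67.9, Csf2ra 45.2, Csf2rb 41.1 and Csf1r 30.8 CPM, and the other receptors had 8.02 to 18.5 CPM. No strain comparison was made on these cells.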
